A study of Mus musculus with 6 samples.

Results

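The genes described here are 10 genes of the circadian clock and its output: Arntl, Npas2, Clock, Nr1d1, Dbp, Per1, Per3, Per2, Noct and Cry1. They were taken by gene name from a table of 34745 mouse genes, and all 10 were in the table. Of these, 9 reached the level for testing (an FPKM of 1 or more in 2 or more libraries, which 11435 genes had), and Npas2 did not. FPKM is a fragment count scaled to the gene's length and to the library's depth. Messenger RNA was sequenced from liver of C57BL/6 mice in 6 libraries, 1 for each sex and tissue. The tumour libraries hold hepatocellular carcinoma of Hras12V transgenic mice, from a 9-month male and a 15-month female group. The precancerous libraries hold liver adjacent to tumour in Hras12V transgenic mice, of males at 9 months and of females at 15 months. The normal libraries hold liver of wild-type C57BL/6 mice of the same sexes and ages, and no group was given a treatment.

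With 1 library in each group there was no replicate, and sex and age cannot be told apart. Tumour and precancerous tissue differ from normal liver in genotype and in mouse as well as in tissue. Not given in the sources used here were the promoter that drives the transgene, the number of mice in a library, whether a tumour and a precancerous library share a mouse, and the time of day at which the livers were taken. The part of time of day in every difference below was not tested. Total counts were 5996585 to 7347064 in the males and 15047022 to 18434508 in the females. The male libraries held no count for the mitochondrial gene mt-Co1 (9344 to 21499 FPKM in females), while mt-Nd6 stood at 1476 to 3798 FPKM in males and at 2.51 to 4.80 FPKM in females. Counts on mouse Hras need not include the transgene, and stood at 2.22 to 3.50 FPKM in the transgenic and 2.05 to 3.28 FPKM in the wild-type libraries. The part of the mitochondrial difference in the male and female values was not tested. Of 6 hepatocyte markers 5 were in the table, none was at 0, and they summed to 45464 to 64198 FPKM in the transgenic libraries and 30490 to 44876 FPKM in the wild-type ones. Most of that sum was Alb (53377 of 64198 FPKM in male tumour), and none of the 5 markers was called higher in a tissue comparison. Cps1 fell in tumour against precancerous (log2 fold change -1.18, edgeR adjusted p = 0.0486) and against normal liver (-1.34, adjusted p = 0.0288), and Ttr fell in tumour against normal liver (-0.89, adjusted p = 0.0214).

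The circadian clock of the liver is a feedback loop of transcription. Arntl (also called Bmal1) pairs with Clock or Npas2 and binds E-boxes, which switches on the Per and Cry genes, whose proteins then shut off the pair. Another loop runs through Nr1d1 (Rev-erb alpha), which represses Arntl through ROR elements, and a further one through Dbp, which acts on D-boxes of Per genes and of many genes of liver metabolism. In liver of mice kept in a light-dark cycle and fed at night, Arntl, Npas2 and Clock peak around the end of the night, Nr1d1 in the middle of the day, Dbp, Per1 and Per3 towards the end of the day, Per2 and Noct around the start of the night, and Cry1 later in the night. Noct (nocturnin) is a strongly rhythmic output gene of the deadenylase family, and its protein acts as a phosphatase on NADPH. A liver sample thus gives 1 point on each of these rhythms.

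The promoters of 9 of the 10 genes (all but Per2) were matched by symbol in RefSeq promoter sequences of build GRCm38.p6. These gave 13 starts, and the 250 bases before each start were searched on both strands. The motifs were the E-box CACGTG, the D-box TTANGTAA, the ROR element core TNGGTCA and the cAMP response element TGACGTCA, none of which overlapped another. Of 32851 promoters of this length, 6.02% held the E-box, 2.06% the D-box, 9.19% the ROR element core and 1.55% the cAMP response element. Below are 5 of these promoters, from 250 to 21 bases before the start and 5′ to 3′ on the gene's strand. They show letter matches to motifs of the 3 loops, beside Noct, the gene with the widest range of levels in these livers. Capitals mark the motifs.
Arntl (chr7:113207215-113207444, plus strand): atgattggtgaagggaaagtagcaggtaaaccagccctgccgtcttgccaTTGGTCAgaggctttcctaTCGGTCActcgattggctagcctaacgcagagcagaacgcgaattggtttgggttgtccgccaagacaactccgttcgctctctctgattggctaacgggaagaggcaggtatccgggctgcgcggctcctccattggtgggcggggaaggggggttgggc
Per1 (chr11:69098699-69098928, plus strand): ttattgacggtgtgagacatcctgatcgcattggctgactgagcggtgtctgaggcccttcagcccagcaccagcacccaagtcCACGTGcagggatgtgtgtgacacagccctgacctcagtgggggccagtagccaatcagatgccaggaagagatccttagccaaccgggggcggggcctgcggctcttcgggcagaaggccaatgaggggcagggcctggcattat
Per3 (chr4:151044686-151044915, minus strand): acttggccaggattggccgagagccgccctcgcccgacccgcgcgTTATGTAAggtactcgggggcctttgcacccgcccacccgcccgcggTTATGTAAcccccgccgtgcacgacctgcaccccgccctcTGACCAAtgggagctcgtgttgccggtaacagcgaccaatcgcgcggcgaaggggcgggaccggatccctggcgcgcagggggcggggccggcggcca
Cry1 (chr10:85185075-85185304, minus strand): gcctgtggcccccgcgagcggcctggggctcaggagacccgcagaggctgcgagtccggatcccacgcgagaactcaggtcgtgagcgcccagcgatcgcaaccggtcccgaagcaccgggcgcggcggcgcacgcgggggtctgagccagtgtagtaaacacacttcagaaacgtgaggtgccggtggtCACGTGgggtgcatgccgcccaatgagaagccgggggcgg
Noct (chr3:51224197-51224426, plus strand): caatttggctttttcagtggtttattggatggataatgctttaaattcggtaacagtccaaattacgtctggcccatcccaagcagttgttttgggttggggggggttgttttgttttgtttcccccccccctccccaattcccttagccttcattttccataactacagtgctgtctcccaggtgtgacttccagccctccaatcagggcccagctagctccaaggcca
Arntl held a pair of matches to the ROR element core, TTGGTCA and TCGGTCA, 200 and 181 bases before the start shown. Per1 held an E-box at 166 bases before the start shown, while the window of its other start held none of the 4 motifs. Cry1 held an E-box at 60 bases before the start. Per3 held D-boxes at 205 and 158 bases and a ROR element core, on the other strand, at 118 bases. In the Noct window, and in the windows of Npas2, Clock, Nr1d1 and Dbp, the letters of the 4 motifs were not found. A match is a run of letters and not a measured site, and these windows are short. The second letter of the ROR element core was left free, so its matches in Arntl and Per3 need not be sites that Nr1d1 binds.

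**Figure D1:**
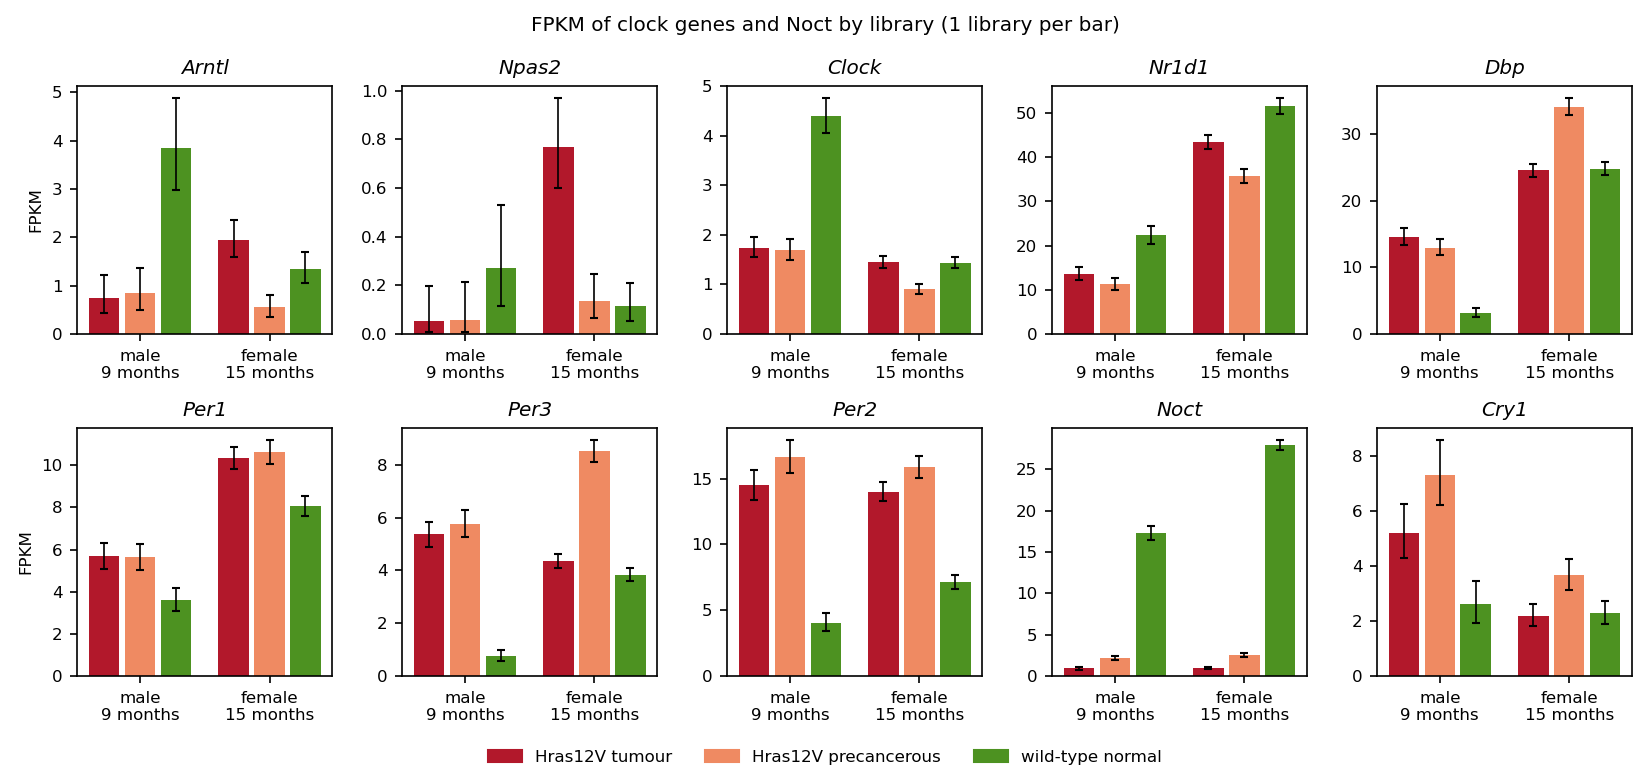
FPKM of the 10 genes (vertical axes, each with its own scale from 0) in the 6 libraries, with tumour, precancerous and normal bars from left to right for 9-month males and 15-month females. Each bar is 1 library, and its error bar is the 95% exact Poisson interval of the count, which covers counting error only. Noct is high in both normal livers and low in the other 4 libraries, whereas Arntl, Clock, Dbp and Per3 set the male normal liver apart.

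Arntl, the indispensable activator of the clock, was highest in male normal liver and lowest in female precancerous liver. In males it stood at 0.750 FPKM in tumour, 0.849 FPKM in precancerous and 3.85 FPKM in normal liver. In females it stood at 1.94 FPKM in tumour, 0.549 FPKM in precancerous and 1.35 FPKM in normal liver. The order of tumour and normal liver thus differed between the sexes, while the precancerous library was below the normal one in both. The counts behind Arntl were small, 16, 17 and 67 in male tumour, precancerous and normal liver and 104, 24 and 69 in the female ones. The 95% counting interval of the tumour to normal log2 ratio ran from -3.25 to -1.56 in males and from 0.08 to 0.99 in females. Arntl (ENSMUSG00000055116) lies on chromosome 7 from 113207465 to 113314122 in the GRCm38 coordinates of the table.

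Npas2, a paralogue of Clock that can take its place beside Arntl, had 2, 2 and 8 counts in male tumour, precancerous and normal liver. In females it had 70, 10 and 10 counts in the same tissues, or 0.769, 0.135 and 0.115 FPKM. Only the female tumour stood apart, with 5.71 times the level of female precancerous liver (the log2 ratio was 2.51, with a counting interval of 1.55 to 3.64). Without a filter on low values the edgeR quasi-likelihood test gave it adjusted p-values of 0.222 between tumour and precancerous, 0.883 between precancerous and normal and 0.431 between tumour and normal tissue. Npas2 (ENSMUSG00000026077) lies on chromosome 1 from 39193731 to 39363236.

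Clock, the partner of Arntl, stood at 1.74 FPKM in male tumour, 1.70 FPKM in male precancerous and 4.39 FPKM in male normal liver. Its levels in females were 1.45 FPKM in tumour, 0.902 FPKM in precancerous and 1.44 FPKM in normal liver. All 3 male libraries were above all 3 female ones, and male tumour was 2.52-fold below male normal liver, the library that was also highest for Arntl. The share of all genes with the sexes apart in this way was not counted, here or for Nr1d1 and Per1 below. Clock (ENSMUSG00000029238) lies on chromosome 5 from 76209868 to 76304792.

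Nr1d1, the repressor of Arntl, was at 13.6 FPKM in male tumour, 11.4 FPKM in male precancerous and 22.3 FPKM in male normal liver. The female levels were 43.5 FPKM in tumour, 35.7 FPKM in precancerous and 51.6 FPKM in normal liver. In both sexes normal liver was highest and precancerous liver lowest, and every male library was below every female one. Nr1d1 (ENSMUSG00000020889) lies on chromosome 11 from 98767932 to 98775333 and shares 263 exonic bases with Thra on the opposite strand. Thra had at most 236 counts in a library, against at least 274 for Nr1d1.

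Dbp, the activator of D-box genes, ranged over 10.6-fold between the highest and the lowest library. Male tumour held 14.6 FPKM and male precancerous liver 13.0 FPKM, against 3.21 FPKM in male normal liver. In females the levels were 24.5 FPKM in tumour, 34.1 FPKM in precancerous and 24.8 FPKM in normal liver. The male normal library was therefore the low one, and female tumour and normal liver lay within each other's counting error (log2 ratio -0.02, interval -0.10 to 0.07). Dbp (ENSMUSG00000059824, chromosome 7 from 45705088 to 45710155) shares 539 exonic bases with Sphk2 on the opposite strand. In male normal liver Dbp had 97 counts and Sphk2 217, and in the other 5 libraries Dbp had 450 to 2583 counts and Sphk2 144 to 970. Whether counting used the strand was not given in the sources used here, so reads of a shared stretch cannot be told apart.

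Per1, a repressor of the loop that also answers to acute signals, varied least of the 10 genes, by 2.96-fold. It stood at 5.68 FPKM in male tumour and 5.64 FPKM in male precancerous liver, against 3.59 FPKM in male normal liver. Female tumour held 10.4 FPKM and female precancerous liver 10.6 FPKM, against 8.05 FPKM in female normal liver. In each sex tumour and precancerous liver were alike within counting error and both were above normal liver, and every female library was above every male one. Per1 (ENSMUSG00000020893) lies on chromosome 11 from 69095217 to 69109960.

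Per3, whose promoter carries the D-boxes shown above, was at 5.37 FPKM in male tumour, 5.75 FPKM in male precancerous and 0.761 FPKM in male normal liver. In females it was at 4.37 FPKM in tumour, 8.53 FPKM in precancerous and 3.85 FPKM in normal liver. The 4 transgenic libraries lay between 4.37 and 8.53 FPKM and the wild-type ones at or below 3.85 FPKM, so they did not overlap, but female tumour and female normal liver were close. How many of all genes keep these libraries apart was not counted. The tumour to normal ratio was 7.05 in males and 1.14 in females. Per3 (ENSMUSG00000028957) lies on chromosome 4 from 151003652 to 151044665.

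Per2, the repressor that peaks after the other Per genes, was even across the transgenic livers. Tumour held 14.5 FPKM in males and 14.0 FPKM in females, and precancerous liver held 16.6 FPKM in males and 15.9 FPKM in females. Normal liver held 4.06 FPKM in males and 7.12 FPKM in females. No transgenic library overlapped a wild-type one, as for Per3, and again the share of all genes of which this holds was not counted. Within tumour and within precancerous liver the sexes differed by less than counting error. Per2 (ENSMUSG00000055866) lies on chromosome 1 from 91415982 to 91459324.

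Noct spanned 30.3-fold, more than any of the other 9 genes. Its levels were 0.921 FPKM in male tumour, 2.17 FPKM in male precancerous and 17.3 FPKM in male normal liver. In females they were 0.939 FPKM in tumour, 2.54 FPKM in precancerous and 27.9 FPKM in normal liver. Both sexes had the same order, with tumour lowest, precancerous liver between and normal liver highest, and the 3 tissues did not overlap. The share of all genes with such an order was not counted. The tumours of the sexes were level within counting error (95% intervals of 0.756 to 1.11 FPKM in male and 0.832 to 1.06 FPKM in female tumour), and the precancerous intervals also overlapped, at 1.91 to 2.46 FPKM in males and 2.34 to 2.75 FPKM in females (log2 ratio of male to female -0.23, interval -0.45 to -0.01). The normal livers differed from each other beyond counting error, with 16.4 to 18.1 FPKM in males and 27.3 to 28.5 FPKM in females. Counts of Noct were 109, 241 and 1668 in male tumour, precancerous and normal liver and 279, 616 and 7944 in the female ones. Noct (ENSMUSG00000023087) lies on chromosome 3 from 51224447 to 51251644.

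Cry1, the partner of the Per proteins with the latest peak, was highest in precancerous liver of both sexes. Male tumour held 5.19 FPKM, male precancerous liver 7.32 FPKM and male normal liver 2.60 FPKM. Female tumour held 2.20 FPKM, female precancerous liver 3.66 FPKM and female normal liver 2.27 FPKM. The interval of the tumour to normal log2 ratio ran from 0.50 to 1.52 in males and from -0.43 to 0.32 in females. Cry1 (ENSMUSG00000020038) lies on chromosome 10 from 85131702 to 85185054.

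Tumour and precancerous liver, both from Hras12V mice, were compared to find where clock expression of the carcinoma differed from that of the liver around it. Noct alone was called: it fell in tumours of both sexes, to 0.921 FPKM in male and 0.939 FPKM in female tumour, against 2.17 FPKM in male and 2.54 FPKM in female precancerous liver. Its log2 fold change was -1.37 (SE 0.20, adjusted p = 0.0109, edgeR quasi-likelihood test over all 11435 genes with sex as a term). The within-sex log2 ratios were -1.24 in males and -1.44 in females. For the other 8 tested genes the log2 fold changes ran from -0.64 (Cry1, adjusted p = 0.135) to 1.14 (Arntl, adjusted p = 0.307), and their median with Noct was -0.13, against 0.03 over all genes. Per1 (-0.04, SE 0.12), Dbp (-0.13, SE 0.49) and Per2 (-0.22, SE 0.24) were near 0. Of all genes tested, 25.9% were called in this comparison, 13.8% higher and 12.1% lower in tumour, so 1 call among 9 genes is a smaller share than that of all genes. The Noct call was lost without the male precancerous library (adjusted p = 0.113), without the female one (adjusted p = 0.0819) and without the sex term (adjusted p = 0.116), with log2 fold changes of -1.30, -1.47 and -1.37. Without the male tumour Arntl was called, with a log2 fold change of 2.07 (adjusted p = 0.0261) that rests on the female tumour, and without either normal library Cry1 was called lower in tumour (adjusted p = 0.0447 without the male and 0.0417 without the female one).

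Precancerous Hras12V liver and wild-type liver were compared to find what the transgenic liver shows outside the tumour. Again Noct was the gene called. It fell to 2.17 FPKM in male and 2.54 FPKM in female precancerous liver, against 17.3 FPKM in male and 27.9 FPKM in female normal liver, that is 7.95-fold lower in males and 10.99-fold lower in females. The log2 fold change was -3.24 (SE 0.21, adjusted p = 0.0251, edgeR), the 21st lowest among 11435 genes. Only 0.254% of all genes were called, 0.105% higher and 0.149% lower in precancerous liver, against 1 of the 9 clock genes. Among the 8 not called, Per3 (1.75, adjusted p = 0.262), Per2 (1.55, adjusted p = 0.102), Dbp (1.05, adjusted p = 0.400) and Cry1 (1.02, adjusted p = 0.201) had positive log2 fold changes, as had Per1 (0.51, adjusted p = 0.186). Arntl (-1.80, adjusted p = 0.324), Clock (-1.05, adjusted p = 0.233) and Nr1d1 (-0.75, adjusted p = 0.152) had negative ones. These 8 genes had the same sign in both sexes, and the median with Noct was 0.51, against -0.01 over all genes. An unadjusted p under 0.05 was reached by 7 of the 9 genes and by 1807 of 11435 genes. The 9 genes were chosen with earlier results of these data known. Clock genes also move together over the day, so the 7 are not separate results. These shares are therefore no test of the set.

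**Figure D2:**
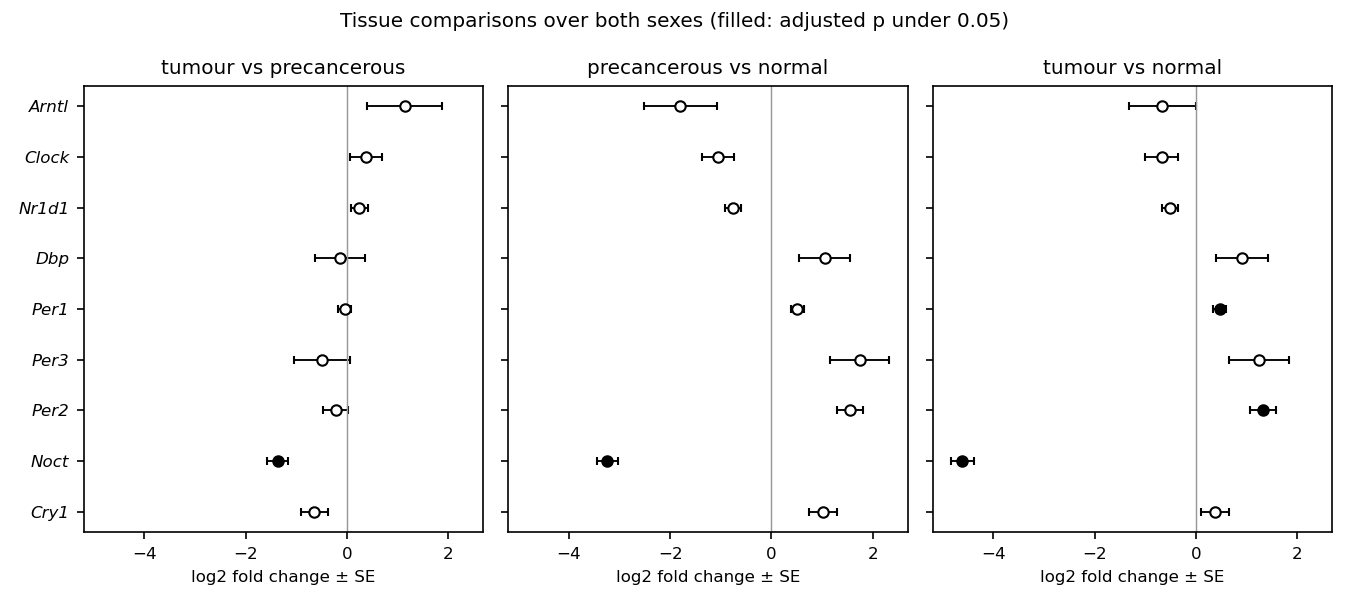
Log2 fold change (horizontal axes, 1 scale for all panels) of the 9 tested genes in 3 tissue comparisons over both sexes, with bars of 1 standard error, and filled points where the edgeR adjusted p was under 0.05. Noct is filled and negative in every panel, at -1.37, -3.24 and -4.61, and Per1 and Per2 are filled between tumour and normal liver alone.

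The Noct call between precancerous and normal liver rested on both precancerous libraries. It was lost without the male one (adjusted p = 0.151) and without the female one (adjusted p = 0.203), on the log2(FPKM + 1) scale with limma (adjusted p = 0.0642), and without the sex term (adjusted p = 0.293). In these 4 settings its log2 fold change lay between -3.30 and -2.78. DESeq2 called 4 of the 9 genes here, Noct and Nr1d1 lower (Nr1d1 adjusted p = 0.0261) and Per2 and Per3 higher (Per3 adjusted p = 0.0467), and it called 368 of all genes. Leaving out the female tumour also gave 4 calls, Noct, Arntl (adjusted p = 0.0423) and Clock (adjusted p = 0.0389) lower and Per2 (adjusted p = 0.0229) higher.

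Tumour and normal liver were compared as the ends of the series. Noct fell to 0.921 FPKM in male and 0.939 FPKM in female tumour, against 17.3 FPKM in male and 27.9 FPKM in female normal liver, or 18.7-fold lower in males and 29.7-fold lower in females. Its log2 fold change was -4.61 (SE 0.23, adjusted p = 0.00121, edgeR), the 55th lowest of 11435. Per2 rose to 14.5 FPKM in male and 14.0 FPKM in female tumour, against 4.06 FPKM in male and 7.12 FPKM in female normal liver (log2 fold change 1.33, SE 0.25, adjusted p = 0.0152). Per1 rose by a smaller amount (0.47, SE 0.13, adjusted p = 0.0416). In all, 2 of the 9 genes were called higher and 1 lower, while 17.3% of all genes were called higher, 16.1% lower and 33.4% in either direction, so the share called among the clock genes was close to that of all genes. The other log2 fold changes were 1.25 for Per3 (adjusted p = 0.166), 0.92 for Dbp (0.228), 0.38 for Cry1 (0.341), -0.51 for Nr1d1 (0.0636), -0.66 for Arntl (0.489) and -0.68 for Clock (0.163). Per3 and Dbp differed mainly in males, by 7.05-fold and 4.54-fold, against 1.14-fold and 0.99-fold in females. Tumour and precancerous liver were each set against the same 2 normal libraries, so these comparisons share them. Leaving out the female normal library added calls of Dbp (2.001, adjusted p = 0.0177), Per3 (2.58, adjusted p = 0.0185) and Nr1d1 (-0.73, adjusted p = 0.043). Leaving out the female tumour added calls of Arntl (-2.23, adjusted p = 0.0158), Clock (-1.20, adjusted p = 0.0163) and Per3 (2.09, adjusted p = 0.0351).

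The Noct call between tumour and normal liver was kept in all 14 alternative settings that gave a value, with log2 fold changes between -4.89 and -3.57. The Per2 call was kept in 13 of 14 and lost without the sex term (adjusted p = 0.0899). Without male normal liver its log2 fold change was 0.93 (adjusted p = 0.0197), and without female normal liver it was 1.82 (adjusted p = 0.0112). The Per1 call was lost in 10 of 14 settings, among them the leaving out of any 1 of the 6 libraries (adjusted p of 0.0597 to 0.166) and DESeq2 (adjusted p = 0.0829).

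Males were compared with females over the 3 tissues, a contrast in which age and the library difference in mitochondrial genes go with sex. Nr1d1 (log2 fold change -1.60, SE 0.13, adjusted p = 0.00295), Per1 (-1.07, SE 0.10, adjusted p = 0.00417) and Dbp (-1.73, SE 0.43, adjusted p = 0.0312) were lower in males by edgeR. Cry1 was higher in males (0.76, SE 0.22, adjusted p = 0.0489). Nr1d1 was 3.20-fold lower in male than in female tumour, 3.14-fold lower in precancerous and 2.32-fold lower in normal liver. Dbp was lower in males by 1.68-fold in tumour, 2.63-fold in precancerous and 7.72-fold in normal liver. Clock (0.85, adjusted p = 0.0568) and Noct (-0.42, adjusted p = 0.0976) missed the threshold, although all male libraries exceeded all female ones for Clock. In all, 1 of 9 genes was higher and 3 were lower in males, against 19.1% higher, 18.2% lower and 37.3% called of all genes. The Cry1 call was lost in 8 alternatives and the Dbp call in 3, among them the leaving out of the male precancerous (adjusted p = 0.115) or female precancerous library (adjusted p = 0.109). The Cry1 call was lost without the male tumour (0.142), the female tumour (0.104), the male precancerous (0.235) or the female precancerous library (0.225), each as an adjusted p. Without the male tumour Arntl (1.11, adjusted p = 0.0472) and Clock (1.17, adjusted p = 0.0157) were called higher in males, and without the female tumour Arntl (1.13, adjusted p = 0.0299), Clock (1.20, adjusted p = 0.00527) and Per3 (-1.39, adjusted p = 0.0346) were called.

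Ratios of genes within a library do not depend on the scaling between libraries. The log2 ratio of Dbp to Arntl, genes with nearly opposite peaks, was 4.28 in male tumour, 3.93 in male precancerous and -0.26 in male normal liver. In females it was 3.66 in tumour, 5.96 in precancerous and 4.20 in normal liver. Male normal liver was thus the lowest of the 6 libraries in this ratio, and the female normal library lay among the transgenic ones. Per3 to Arntl gave the same picture, with 2.84, 2.76 and -2.34 in male tumour, precancerous and normal liver and 1.17, 3.96 and 1.52 in the female ones. Per2 to Arntl was 0.08 in male normal liver and between 2.40 and 4.85 in the other 5 libraries. For Noct to Arntl the order was another one: 0.30, 1.35 and 2.17 in male tumour, precancerous and normal liver and -1.05, 2.21 and 4.38 in the female ones. The normal livers were thus far apart in Dbp to Arntl, and both were above the tumour and precancerous library of their sex in Noct to Arntl. The male step from precancerous to normal liver was not beyond the counting error of Arntl. In males the precancerous to normal log2 ratio was -2.99 for Noct (interval -3.19 to -2.80) and -2.18 for Arntl (interval -3.04 to -1.39), and these intervals overlap. Over Clock the Noct ratio was -0.92, 0.35 and 1.97 in the male tissues and -0.63, 1.49 and 4.28 in the female ones, in the same order. Ratios between genes rest on the gene lengths behind the FPKM values, which differed from the annotated exon length for some genes (16113 against 10658 bases for Noct, 2904 against 7523 bases for Arntl, 5036 against 2993 bases for Dbp). Their size and sign in a library are therefore uncertain, while a gene's length moves all 6 libraries alike and leaves their order as it is.

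**Figure D3:**
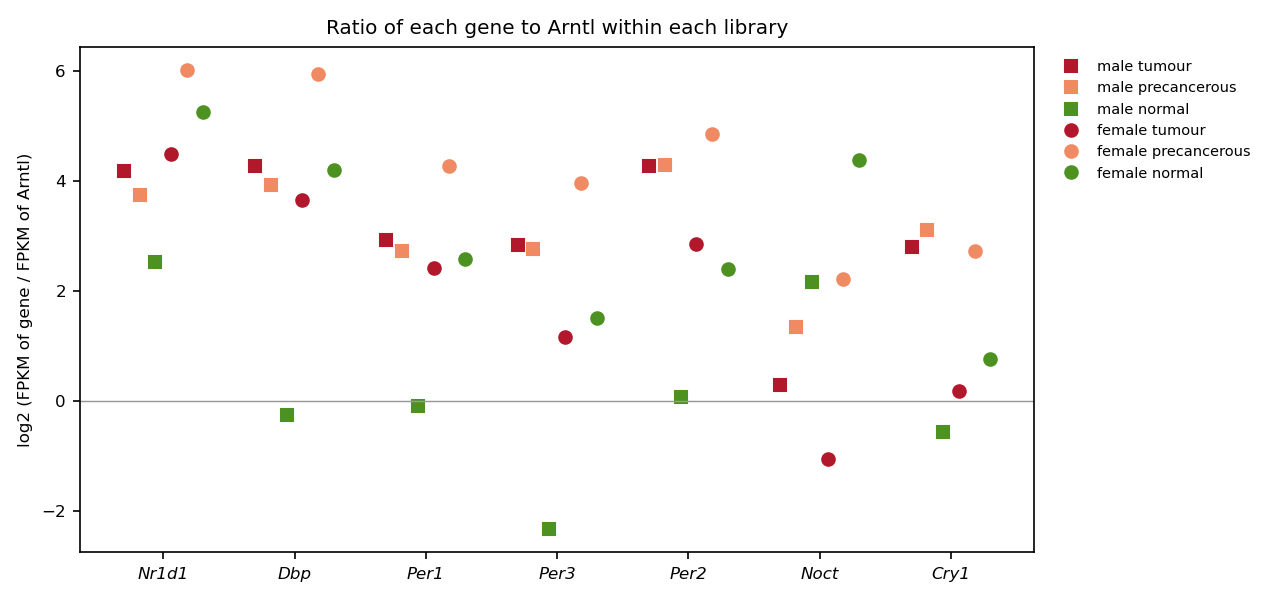
Log2 ratio of FPKM of 7 genes to that of Arntl within each library (vertical axis), with squares for males, circles for females and colours for the tissues. Male normal liver is the lowest point for Nr1d1, Dbp, Per1, Per3, Per2 and Cry1, while for Noct it lies above the male tumour and precancerous points.

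Of 21 further clock genes 17 were tested, and their medians were 0.01, 0.21 and 0.09 on the log2 scale in tumour against precancerous, precancerous against normal and tumour against normal tissue. Between tumour and precancerous liver 1 rose and 3 fell, a share of the 17 near the 25.9% called over all genes. Rora, an activator that competes with Nr1d1 at ROR elements, rose (0.93, SE 0.20, adjusted p = 0.0262), with 3.13 FPKM in male and 3.05 FPKM in female tumour against 2.03 FPKM in male and 1.27 FPKM in female precancerous liver. Tef (-0.91, SE 0.23, adjusted p = 0.0443) and Hlf (-0.92, SE 0.20, adjusted p = 0.0274), the D-box activators related to Dbp, fell, and so did Cry2 (-0.51, SE 0.10, adjusted p = 0.0241), the second cryptochrome gene. Tef stood at 9.69 FPKM in male and 8.01 FPKM in female tumour, against 15.6 FPKM in male and 17.2 FPKM in female precancerous liver. Dbp itself, at -0.13 (SE 0.49), was not called, and the difference between Dbp and its relatives was not tested. Between precancerous and normal liver edgeR called 0 of the 17, against 0.254% of all genes, so the lack of calls cannot show unchanged genes. An unadjusted p under 0.05 was reached by 7 of the 17 and by 1807 of all 11435 genes. DESeq2 called 4 of the 17, and its count over all genes is given above.

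Between tumour and normal liver 3 of the 17 rose, near the 17.3% called higher over all genes, and none was called lower, against 16.1% over all genes. Bhlhe41, a repressor at E-boxes, rose by 1.58 (SE 0.23, adjusted p = 0.00747), Rora by 1.38 (SE 0.20, adjusted p = 0.00737) and Csnk1e, a kinase of the Per proteins, by 1.04 (SE 0.23, adjusted p = 0.0254) on the log2 scale. Bhlhe41 was low throughout, at 0.710 FPKM in male and 1.20 FPKM in female tumour against 0.275 FPKM in male and 0.358 FPKM in female normal liver. It reached the 1 FPKM needed for testing only in female tumour and in female precancerous liver (1.15 FPKM). Bhlhe41 was thus tested only through libraries where it was high, and its calls in tumour and by sex lean on the filter. Nr1d2, the paralogue of Nr1d1, lay between 19.6 and 30.4 FPKM in every library (0.19, adjusted p = 0.372). Nfil3 (-0.34), Bhlhe40 (0.40), Ciart (0.07), Tef (0.08), Hlf (-0.31) and Cry2 (0.10) were not called, with adjusted p-values between 0.144 and 0.886. In males against females 2 of the 17 were higher and 4 lower, against 37.3% called over all genes. The 4 largest of those called were Csnk1e (-0.97, adjusted p = 0.0191), Ciart (-0.95, adjusted p = 0.0355), Nfil3 (0.68, adjusted p = 0.0457) and Bhlhe41 (-0.66, adjusted p = 0.0428). Cry2 (-0.53, adjusted p = 0.0116) was lower as well. Over the alternative settings the number called among the 17 ran from 0 to 7 for tumour against precancerous, 0 to 4 for precancerous against normal and 0 to 5 for tumour against normal tissue.

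**Figure D4:**
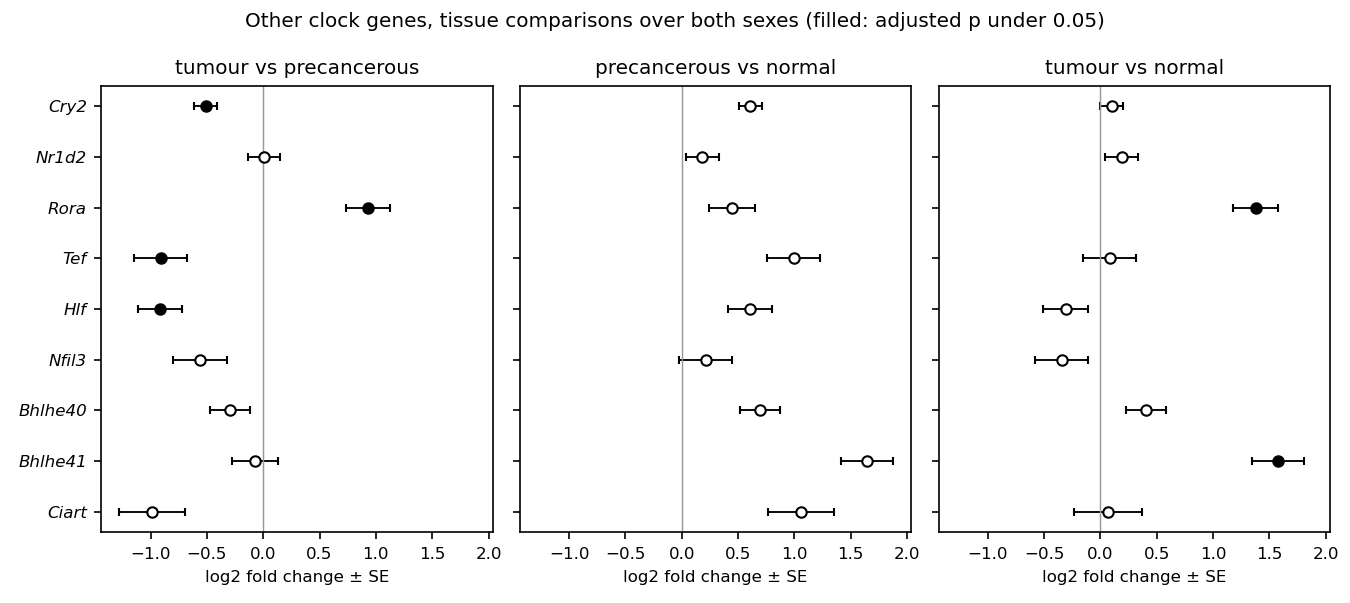
Log2 fold change with 1 standard error (horizontal axes, 1 scale for all panels) of 9 further clock genes in 3 tissue comparisons over both sexes, with filled points where the edgeR adjusted p was under 0.05. Rora is filled and positive in the first and the last panel, Cry2, Tef and Hlf are filled and negative between tumour and precancerous liver, and no point is filled between precancerous and normal liver.

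Genes that the clock drives in liver were read next, 23 of 26 tested. Between tumour and precancerous liver 6 fell and none was called higher, with a median of -0.17. The share called was near the 25.9% of all genes, of which 12.1% were lower, and over the alternatives 1 to 9 of the 23 were called. Upp2, a uridine phosphorylase with a strong daily rhythm, fell to 2.60 FPKM in male and 3.24 FPKM in female tumour, against 50.1 FPKM in male and 62.1 FPKM in female precancerous liver (-4.29, SE 0.18, adjusted p = 0.00208), and was called in all 14 alternatives. Usp2, a ubiquitin protease and a direct target of Arntl and Clock, fell by 2.74 (SE 0.58, adjusted p = 0.0269), with 1.05 FPKM in male and 0.473 FPKM in female tumour against 4.05 FPKM in male and 5.38 FPKM in female precancerous liver. Elovl3, a fatty acid elongase, and Hsd3b5, a steroid dehydrogenase, also fell, and both are known as male-biased in mouse liver. Elovl3 stood at 0.182 FPKM in male tumour, 6.02 FPKM in male precancerous and 356.5 FPKM in male normal liver. In females it was listed at 0 in tumour, at 0.178 FPKM in precancerous and at 2.39 FPKM in normal liver. It was the 1 gene of the 23 called by edgeR between precancerous and normal liver (lower, adjusted p = 0.0311), against 0.254% of all genes.

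Between tumour and normal liver 2 of the 23 rose and 6 fell, with a median of -0.08, a share near the 33.4% called over all genes, and 2 to 10 were called over the alternatives. The 4 largest of those called were Elovl3 (adjusted p = 0.00121), Hsd3b5 (-6.56, adjusted p = 0.0133), Upp2 (-3.84, adjusted p = 0.00116) and Alas1, the first enzyme of heme synthesis (-1.76, adjusted p = 0.00451). The risers, named after their values were seen, were Tspan4 (1.65, adjusted p = 0.00932) and the transferrin receptor gene Tfrc (1.57, adjusted p = 0.0296). In males against females 4 were higher and 6 lower, against 37.3% called over all genes, and the 4 largest of those called were Hsd3b5 (7.25, adjusted p = 0.00699), Elovl3 (6.79, adjusted p = 0.0013), Por (-1.41, adjusted p = 0.0198) and Tfrc (1.40, adjusted p = 0.0224).

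The 10 listed targets of Dbp and its relatives were all tested. Between tumour and precancerous liver 1 rose and 4 fell, with a median of -1.47, against 25.9% called over all genes, and 1 to 7 were called over the alternatives. The 4 largest log2 fold changes of those called were those of Cyp2c50, a P450 of the Cyp2c family (-4.05, adjusted p = 0.0313), the carboxylesterase gene Ces2a (-2.26, adjusted p = 0.00406), Nr1i3, which encodes the xenobiotic receptor CAR (-2.22, adjusted p = 0.00904), and Alas1, which is also in the list above (-1.66, adjusted p = 0.00753). The riser was Cyp2a5, a coumarin hydroxylase gene, named here after its value was seen (adjusted p = 0.0433, called in 8 of 14 alternatives). Nr1i3 stood at 4.42 FPKM in male and 8.33 FPKM in female tumour, against 20.03 FPKM in male and 38.2 FPKM in female precancerous liver. Between tumour and normal liver 1 rose and 4 fell, with a median of -1.76, against 33.4% called over all genes and 1 to 7 of the list over the alternatives. The riser there was Cyp2a5 again (2.16, adjusted p = 0.0129), while Cyp2c50 was at -4.80 (adjusted p = 0.0171), Ces2a at -2.77 (adjusted p = 0.00167) and Alas1 at -1.76 (adjusted p = 0.00451). Genes of the Cyp2a, Cyp2c and Ces families have near-identical copies that can share reads, which leaves these values uncertain. Between precancerous and normal liver edgeR and DESeq2 each called 0 of the 10, while edgeR called only 0.254% of all genes. An unadjusted edgeR p under 0.05 was reached by 2 of the 10 and by 1807 of all 11435 genes. Dbp was at 1.05 there (edgeR adjusted p = 0.400). In males against females 3 were lower and none was called higher, against 37.3% called over all genes. These were Por at -1.41, Nr1i3 at -1.35 (edgeR adjusted p = 0.0151) and Alas1 at -0.58 (edgeR adjusted p = 0.0475). Dbp was lower in males too, and a link between Dbp and these genes was not tested.

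Genes whose liver rhythm follows body temperature or feeding were read as well, 17 of 18 tested. Between tumour and precancerous liver 1 rose and 4 fell, with a median of -0.39, against 25.9% called over all genes, and 0 to 7 were called over the alternatives. Among those that fell were Pck1 (-2.07, adjusted p = 0.0483), Srebf1 (-1.43, adjusted p = 0.0171) and Tsc22d3 (-1.01, adjusted p = 0.0202), which encode an enzyme of glucose synthesis, the lipogenic factor SREBP1 and a glucocorticoid-induced leucine zipper protein. The riser, named after its value was seen, was the kinase gene Sgk1 (0.79, adjusted p = 0.0324). Between tumour and normal liver 1 rose and 7 fell, with a median of -0.29, against 33.4% called over all genes, and 1 to 8 were called over the alternatives. The 3 largest of those called were the glucose-6-phosphatase gene G6pc (-2.91, adjusted p = 0.0233), Pck1 (-2.59, adjusted p = 0.0222) and Tsc22d3 (-2.01, adjusted p = 0.00276). The riser, named after its value was seen, was Fkbp5, a glucocorticoid-induced chaperone partner (adjusted p = 0.0355). Between precancerous and normal liver edgeR called 0 of the 17, against 0.254% of all genes, and DESeq2 called 3. An unadjusted edgeR p under 0.05 was reached by 4 of the 17 and by 1807 of all 11435 genes. In males against females 4 of the 17 were higher and 2 lower, a share near the 37.3% called over all genes. Those called included Hsph1 (1.17, adjusted p = 0.00417), Hsp90aa1 (0.94, adjusted p = 0.011) and Dnaja1 (0.43, adjusted p = 0.0320), which encode heat shock proteins. Of the other heat shock genes tested, Hspa1b, Hspa8, Dnajb1 and Hspb1 were not called. Sgk1 was lower (-0.56, adjusted p = 0.0383).

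Noct was also set beside 11 tested genes, of 12 listed, that encode deadenylases, their partners and relatives of its catalytic domain. None of these was called lower in a tissue comparison. Of all genes, 12.1%, 0.149% and 16.1% were called lower in tumour against precancerous, precancerous against normal and tumour against normal tissue. Called higher were 2, 1 and 2 of the 11, against 13.8%, 0.105% and 17.3% of all genes. Over the alternatives 1 to 2, 0 to 1 and 1 to 4 were called. Btg2, which recruits the deadenylase complex and is induced by growth signals, rose in all 3 tissue comparisons. It stood at 62.2 FPKM in male and 59.7 FPKM in female tumour, at 10.2 FPKM in male and 10.9 FPKM in female precancerous liver, and at 2.74 FPKM in male and 2.77 FPKM in female normal liver. Its order over the tissues was the reverse of that of Noct, and the sexes were close in each tissue. The log2 fold changes of Btg2 were 2.505 between tumour and precancerous (SE 0.11, adjusted p = 0.00208), 1.93 between precancerous and normal (SE 0.12, adjusted p = 0.0227) and 4.43 between tumour and normal tissue (SE 0.12, adjusted p = 0.000819). The last was called in all 14 alternatives and the middle one in 8. Cnot6, a catalytic subunit of that complex, rose in tumour by 0.53 against precancerous (adjusted p = 0.0199) and by 0.44 against normal liver (adjusted p = 0.0253), called in 10 and 5 of the 14 alternatives. In males against females Cnot6l (0.70, adjusted p = 0.00744), Cnot7 (0.43, adjusted p = 0.037) and Cnot6 (0.34, adjusted p = 0.0295) were higher and Pan2 (-0.46, adjusted p = 0.0176) was lower. That is 4 of the 11, against 37.3% called over all genes, and 0 to 5 were called over the alternatives. The medians of the 11 genes were 0.10, -0.05 and 0.11 on the log2 scale in the tissue comparisons, in the order given for Btg2.

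The genes whose levels ran most like those of Noct over the 6 libraries were Phb, Pnkd, Amt, Acsf2 and Ethe1, with Pearson's r of log2(FPKM + 1) from 0.996 for Phb to 0.987 for the others, among 2957 genes with an SD of at least 0.5 on that scale. Acsf2, a mitochondrial acyl-CoA synthetase gene, stood at 4.19 FPKM in male tumour, 6.33 FPKM in male precancerous and 37.4 FPKM in male normal liver, and at 6.16, 10.99 and 57.1 FPKM in the same female tissues. Ethe1, a mitochondrial sulfur dioxygenase gene, stood at 7.06, 8.70 and 26.9 FPKM in male tumour, precancerous and normal liver and at 9.18, 11.1 and 35.9 FPKM in the female ones. Both had normal livers far above the other libraries, as Noct had. The likest genes of Arntl were Iglj3, Col5a3, Rarres1, Gm15611 and Zkscan3, with r from 0.947 for Iglj3 to 0.897 for Zkscan3. These values describe 6 points that share 3 tissues and 2 sexes, with no test, and the points of Arntl are dominated by male normal liver.

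A bulk library cannot tell fewer cells of a type from less RNA per cell, and markers of other cell types moved between the tissues. The 7 Kupffer cell and macrophage markers summed to 33.1 FPKM in male and 50.2 FPKM in female tumour, 131 FPKM in male and 175 FPKM in female precancerous liver, and 92.6 FPKM in male and 116 FPKM in female normal liver. Between tumour and precancerous liver 6 of these 7 were called lower, against 12.1% of all genes, and no marker of the 7 was at 0. The 5 cholangiocyte markers summed to 121 FPKM in male and 138 FPKM in female tumour and to 8.87 to 14.7 FPKM in the other 4 libraries. Most of the tumour sum was Spp1, with 115 FPKM in male and 129 FPKM in female tumour. Krt19 stood at 0.350 FPKM in male tumour, 0.497 FPKM in male precancerous and 0.214 FPKM in male normal liver, on 6, 8 and 3 counts. In females it was highest in tumour, with 1.07 FPKM against 0.399 FPKM in precancerous and 0.413 FPKM in normal liver (46, 14 and 17 counts). All 3 tested cholangiocyte markers were called higher in tumour than in normal liver, against 17.3% of all genes. Epcam, among these 3, reached the 1 FPKM needed for testing only in the tumours (1.33 FPKM in male and 1.62 FPKM in female tumour). Its call therefore leans on the filter. Of the 7 stellate cell and fibroblast markers 4 rose and 2 fell in tumour, against precancerous as against normal liver. Col1a2, among the risers, also reached 1 FPKM only in the tumours (1.77 FPKM in male and 3.52 FPKM in female tumour). Its part in these counts leans on the filter as well. Over all genes 13.8% rose and 12.1% fell against precancerous, and 17.3% rose and 16.1% fell against normal liver. Endothelial markers summed to 40.3 to 64.6 FPKM and stellate cell and fibroblast markers to 71.1 to 151 FPKM over the 6 libraries. T and NK cell markers summed to at most 6.45 FPKM, with Klrb1c at 0 in at least 1 library, B and plasma cell markers to at most 16.5 FPKM and neutrophil markers to at most 7.20 FPKM, with Ly6g at 0 in at least 1 library. Between precancerous and normal liver, where Noct was called, edgeR called none of the tested members of any of these lists. Only 0.254% of all genes were called there, so a lack of calls among so few markers cannot show an unchanged cell mix. Of the macrophage markers 7 of 7 had an unadjusted edgeR p under 0.05, with a median log2 fold change of 0.49, against 1807 of all 11435 genes. The part of other cell types in the values of Noct, Per1 and Per2 was not tested.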

How the data were processed

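Liver RNA of 6 mouse groups was read as 1 library each. Per the labels' protocols, a mirVana kit gave the RNA and a VAHTS stranded mRNA kit the libraries. The submitters' processing notes name TopHat2 2.0.9, Cuffdiff, GRCm38 and mm10. The authors deposited counts per gene and, beside them, FPKM values per gene, both per the file headers, and no step of the counting is recorded there. The FPKM values were used for levels and the counts for tests. Total counts ran from 5996585 to 18434508 per library, and 0 sample columns were left unused.

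Tests were made on the counts with edgeR 4.0.16 (R 4.3.3) in 1 quasi-likelihood fit of sex and tissue over all 6 libraries, with TMM scaling and 2 residual degrees of freedom, on 11435 genes with an FPKM of 1 or more in 2 or more libraries. A call is a two-sided Benjamini-Hochberg adjusted p under 0.05 over all genes tested, and SE is the log2 fold change divided by the square root of F. Each tissue contrast thus uses the sexes as its replicates. The spread behind a p-value is that of tissue effects between 2 libraries per tissue that differ in sex and age. The quasi-likelihood fit draws this spread towards a trend over all genes. A p-value therefore leans on other genes as well as on the 2 residual degrees of freedom of its own gene. Within a sex no test was possible: log2 ratios of counts scaled to library totals have 95% exact conditional intervals, and levels have exact Poisson intervals, which cover counting error only. The fit was also run on simulated data with 200 changed genes, in which both sexes had the same mean levels apart from depth. It therefore cannot show how the fit behaves where tissue effects differ between the sexes. Alternatives used DESeq2 1.42.0, limma 3.58.1 on log2(FPKM + pseudocount), other filters and scalings, and the leaving out of each library. Python 3.11.15, SciPy 1.17.1 and matplotlib 3.10.9 were used for intervals and plots.

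The clock genes and all gene lists were chosen with earlier results of these data known. All 10 genes were named, with 9 further clock genes always named, and from each other list every gene called, or the 4 with the largest log2 fold change where over 4 were called; some genes that this rule names are not reported here. For Noct and Arntl the 5 most similar genes were named. Promoter sequences are RefSeq's.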

Additional observations from a re-analysis of the deposited data

Results flagged for a closer look

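Arntl moved in opposite directions in the sexes between tumour and normal liver. The log2 ratio was -2.36 in males (0.750 FPKM in tumour and 3.85 FPKM in normal liver) and 0.53 in females (1.94 FPKM in tumour and 1.35 FPKM in normal liver), a difference, male minus female, of -2.89. With 1 library per sex and tissue this difference was not tested. The counts were 16 in male tumour, 67 in male normal, 104 in female tumour and 69 in female normal liver.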

How the results depend on the processing

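Noct kept its negative log2 fold change in all 3 tissue comparisons under all 14 alternatives, and kept its call in all 14 between tumour and normal liver. No log2 fold change of the 9 genes that was called changed sign under an alternative. Between precancerous and normal liver 29 genes and 1 clock gene were called by edgeR. These became 183 genes and 2 clock genes with no filter, 368 and 4 with DESeq2, 3 and 0 with limma on log2(FPKM + 1), 10 and 1 with limma on log2(FPKM + 0.1), and 0 and 0 with tissue alone. With tissue alone, calls between tumour and precancerous liver fell to 113 genes and 0 clock genes, and those between tumour and normal liver to 690 genes and 1 clock gene. With sex alone, males and females differed in 1237 genes and 2 clock genes. Leaving out 1 library at a time gave 457 to 2958 genes and 0 to 2 clock genes for tumour against precancerous, 0 to 350 genes and 0 to 4 clock genes for precancerous against normal, 1939 to 2701 genes and 2 to 5 clock genes for tumour against normal, and 698 to 3976 genes and 2 to 6 clock genes for males against females. A library left out leaves 1 sample in a group, assumed to vary like the others, and the cause of each change was not tested. No paired analysis was possible because each combination of sex and tissue has 1 library. Depth limits Arntl (16 to 104 counts) and Npas2 (2 to 70 counts) most.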

Other observations

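Of the listed output genes, Wee1 and Rgs16 were read after their values were seen, because male normal liver stood apart in them as it did in Dbp and Per3. Wee1, which encodes a cell cycle kinase and is a known clock target in liver, stood at 7.43 FPKM in male tumour, 9.12 FPKM in male precancerous and 0.687 FPKM in male normal liver. In females it stood at 3.77 FPKM in tumour, 8.22 FPKM in precancerous and 3.27 FPKM in normal liver. Rgs16, a regulator of G protein signalling, stood at 103 FPKM in male tumour, 86.7 FPKM in male precancerous and 2.495 FPKM in male normal liver. In females it stood at 112 FPKM in tumour, 104 FPKM in precancerous and 69.1 FPKM in normal liver. Neither gene was called by edgeR between tumour and normal liver (adjusted p = 0.210 for Wee1 and 0.217 for Rgs16) or between precancerous and normal liver (adjusted p = 0.253 for Wee1 and 0.479 for Rgs16).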
